A study of Homo sapiens with 4 samples.

Results

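KP4 is a human cell line of pancreatic ductal adenocarcinoma, and the comparison described here set drugged E5 cells against untreated control cells. E5 is the name of a derived KP4 population that the study's title calls resistant to FOLFIRINOX, and its design text speaks of 5 cycles of treatment with DMSO or drug. What the E5 cells given vehicle had met earlier is therefore not settled. Members were chosen as every gene row with an Ensembl identifier in the E5 FOLFIRINOX and control vehicle libraries, which are 2 of the 4 samples. That gave 60651 genes, of which 15636 had enough reads to be tested, 19927 had reads below the filter and 25088 had no read in any of the 12 libraries.

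Control vehicle cells received DMSO for 96 h, and E5 FOLFIRINOX cells received the drug mixture for 96 h. The mixture held 25 nM SN-38, an agent labelled 5-F at 10 µM and 5 µM oxaliplatin. E5 cells in DMSO and control cells in the same mixture, also for 96 h, served to show the way by which a gene reached its level. All 4 groups shared the KP4 background, DMEM with 10% FBS and an mRNA library kit. Each sample came with 3 numbered columns, read as 3 libraries (n = 3). Whether those were separate cultures is not given, so p-values measure the spread between columns of 1 sample, which may be technical. The 6 libraries compared held 9230058 to 21775030 reads in genes. The line and the drug both differ between the groups compared, and no contrast of these 2 groups alone tells them apart.

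FOLFIRINOX combines drugs that act on DNA. SN-38, the active form of irinotecan, traps topoisomerase I on DNA, and oxaliplatin forms platinum adducts. Drug-resistant cells in general are known for raised drug efflux and oxidative stress defence. Interferon-stimulated genes are switched on by transcription factors that bind the interferon-stimulated response element. Cholesterol synthesis genes are switched on by SREBP2, the product of SREBF2, when sterols are low.

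Markers of pancreatic ductal cells were mixed in both groups. KRT18, SOX9 and KRT8 were present, at means of 171, 51.2 and 31.8 CPM (read counts scaled for library depth by TMM) in control vehicle cells. EPCAM, CDH1 and KRT19 were at 0.599, 1.23 and 1.10 CPM there, and the mesenchymal gene VIM at 2473 CPM. In E5 FOLFIRINOX cells KRT18, SOX9 and KRT8 had means of 622, 132 and 183 CPM. EPCAM, CDH1 and KRT19 were at 0.445, 0.491 and 1.79 CPM in those cells, and VIM at 1996 CPM. The acinar markers PRSS1, CPA1, CELA3A and CTRB1 had no read in either group. The 6 immune markers summed to 49.0 to 54.9 CPM in control vehicle libraries and 0.285 to 0.517 in E5 FOLFIRINOX libraries, and nearly all of the former was PTPRC, which encodes CD45. CD3E, which defines T cells, had no read in either group. What part this marker has in other results was not tested. In bulk RNA, fewer cells of a kind and less RNA per cell cannot be told apart.

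Drugged E5 cells were far from untreated control cells in many genes and close to them in many others. Of the 15636 genes, 4719 (30.2%) were higher and 4921 (31.5%) lower in E5 FOLFIRINOX libraries by edgeR's quasi-likelihood test at an adjusted p under 0.05, 61.7% in all. A gene was counted as away from the control level when it passed the test and differed at least 2-fold. By that rule 1772 genes (11.3%) were away and higher, and 1173 (7.5%) away and lower. A gene was counted as at the control level when the 95% interval of its fold change lay within 1.5-fold in either direction. By that rule 6154 genes (39.4%) were at the control level, although 2488 of them also passed the test with a small difference. The other 6537 genes lay in between. The median log2 fold change of all tested genes was -0.01.

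**Figure D1:**
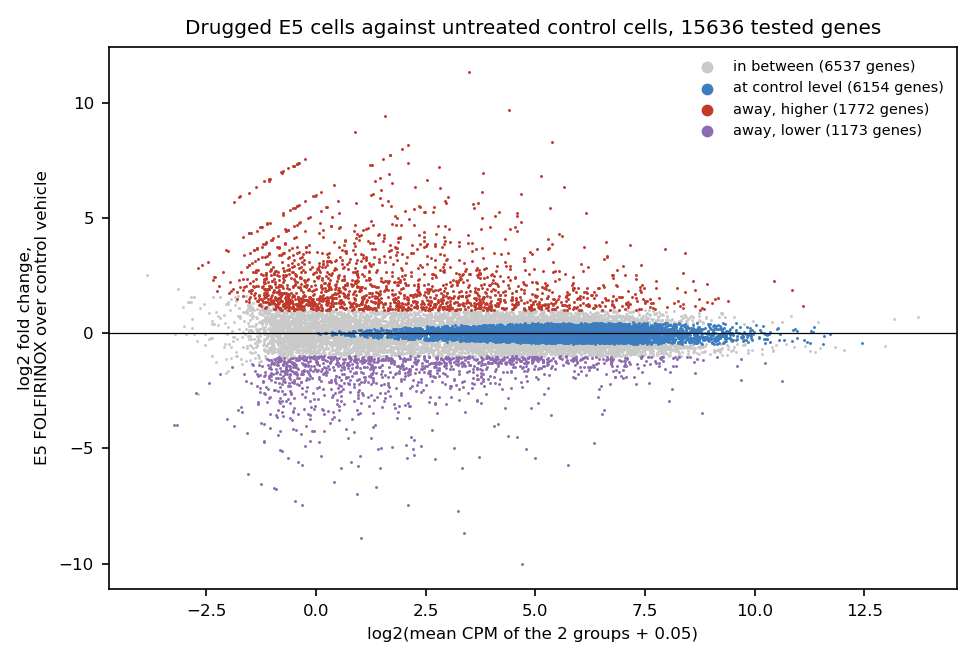
Each point is 1 tested gene. The x axis is the log2 of the mean CPM of the 2 groups plus a small constant and the y axis the log2 fold change of E5 FOLFIRINOX over control vehicle. Colours mark genes at the control level (6154), in between (6537), away and higher (1772) and away and lower (1173). Genes at the control level sit mainly at higher CPM, where the intervals are narrow.

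Most genes that set E5 cells apart in vehicle still stood apart under the drug. E5 vehicle cells had 1162 genes (7.43% of those tested) at least 2-fold above control vehicle, and 937 of them (80.6%) were away and higher in E5 FOLFIRINOX cells. Another 179 lay in between, 41 (3.53%) were at the control level and 5 were away on the low side. Of the 787 genes (5.03%) at least 2-fold below, 510 (64.8%) were away and lower, 238 in between, 30 (3.81%) at the control level and 9 away on the high side. Seen from the drug response of control cells, 950 of 1833 genes (11.7%) that rose at least 2-fold were away and higher in drugged E5 cells, and 69 were at the control level. Of 1280 genes (8.19%) that fell at least 2-fold there, 502 were away and lower and 148 at the control level. These counts describe contrasts that share the control vehicle libraries, so no test was made of them.

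Paths were described by where a gene started in E5 vehicle cells and where it ended. In all, 71 genes returned, that is, E5 vehicle cells differed at least 2-fold and E5 FOLFIRINOX cells were at the control level. Another 347 genes were kept, with an E5 difference of at least 2-fold and a drug effect whose 95% interval lay within 1.5-fold. Such a drug interval was found for 6829 of all 15636 tested genes. The line and the drug moved 192 genes the same way, each at least 2-fold, called added. Over all tested genes, the drug raised 5.94% and lowered 4.27% at least 2-fold in E5 cells. The drug alone moved 250 genes at least 2-fold from a control level in E5 vehicle cells. A set of 217 genes was held: control cells responded at least 2-fold to the drug and E5 FOLFIRINOX cells were at the level of untreated control cells. Finally 14 genes overshot, at least 2-fold on one side in E5 vehicle cells and on the other in E5 FOLFIRINOX cells.

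**Figure D2:**
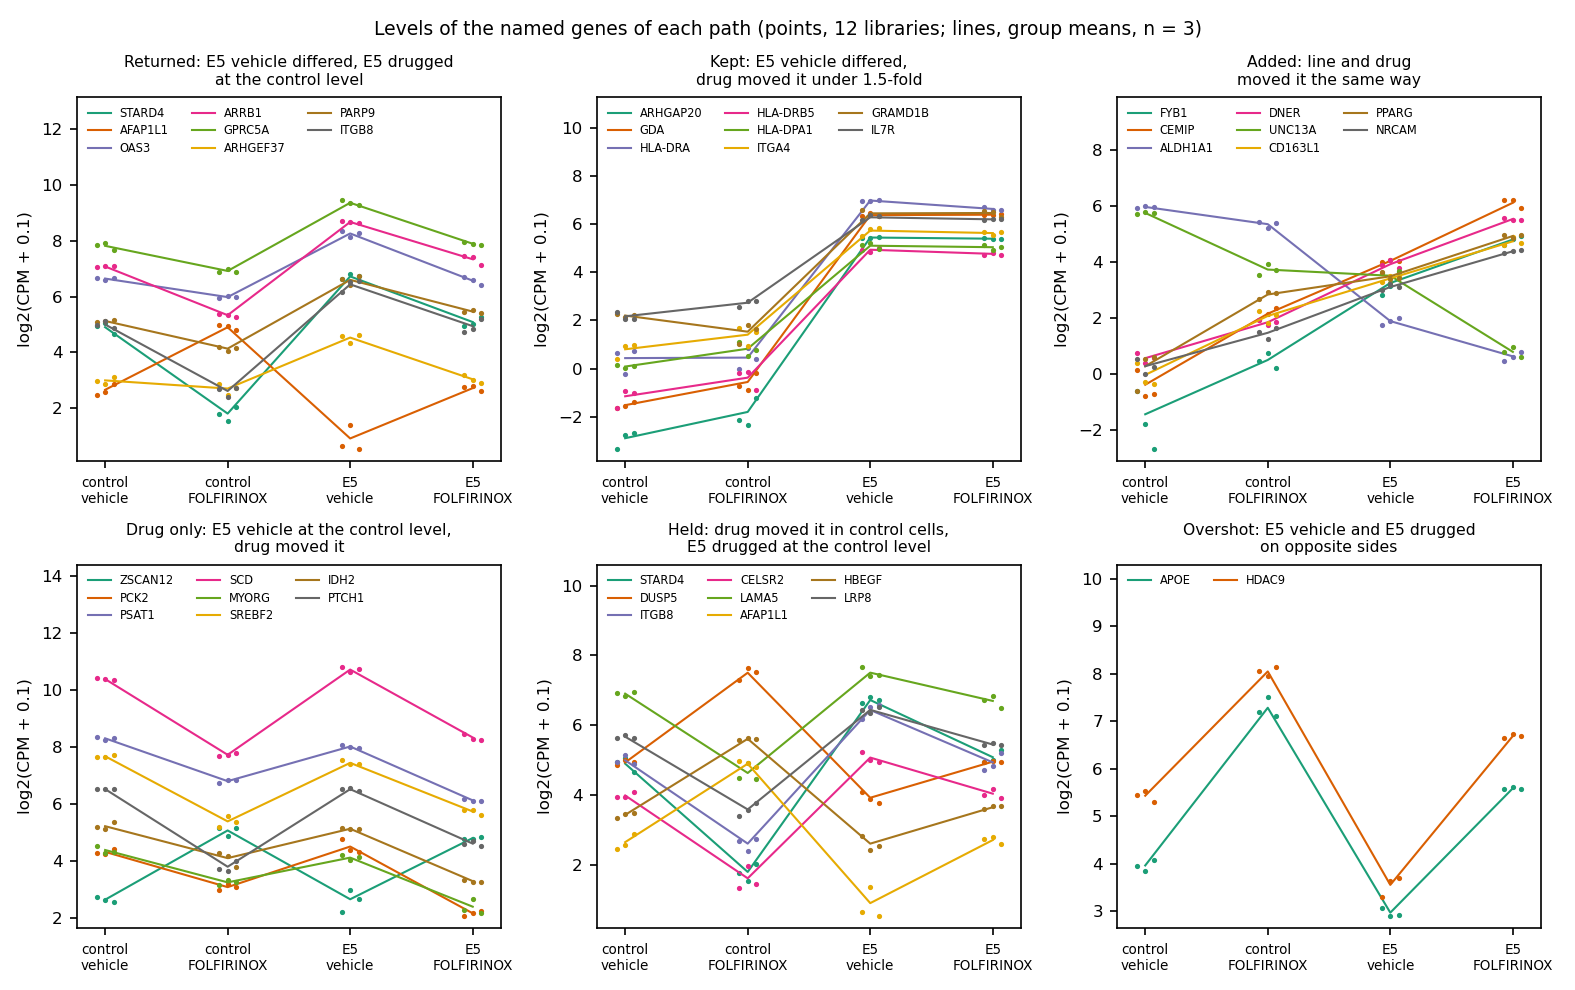
Each panel shows named genes of 1 path as log2 of CPM plus a small constant in the 4 groups, with points for the 12 libraries and lines through the means (n = 3). In the panel of returned genes, 7 of 8 are high in E5 vehicle cells and back near control vehicle in E5 FOLFIRINOX cells, and AFAP1L1 makes the same move from below. In the panel of kept genes both E5 groups sit together, above both control groups.

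Genes that returned included a sterol carrier, an antiviral enzyme and an integrin. Gene coordinates are those of the deposited table, on GRCh38. STARD4 (ENSG00000164211.13, chromosome 5, 111496033 to 111512590), a carrier that moves cholesterol between membranes, had 30.8, 33.3 and 25.4 CPM in control vehicle libraries and 30.8, 32.1 and 38.9 in E5 FOLFIRINOX libraries. It stood at 98.7, 112 and 107 CPM in E5 vehicle cells and at 3.34, 2.83 and 4.01 in drugged control cells. The drug thus lowered STARD4 in both lines, and the drugged E5 range overlapped that of untreated control cells while the drugged control range lay far below. The log2 fold change of E5 FOLFIRINOX over control vehicle was 0.18 ± 0.11 (SE), adjusted p = 0.16 by edgeR.

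GPRC5A (ENSG00000013588.9, chromosome 12, 12891559 to 12917937), an orphan receptor induced by retinoic acid, had 231, 241 and 206 CPM in control vehicle, 706, 651 and 624 in E5 vehicle and 246, 239 and 230 in E5 FOLFIRINOX libraries. The untreated control and drugged E5 ranges overlapped, with log2 0.07 ± 0.066, adjusted p = 0.34 by edgeR. ITGB8, an integrin subunit that helps to activate latent TGF-beta, stood at 31.1, 35.2 and 29.4 CPM in control vehicle and 26.5, 28.3 and 37.0 in E5 FOLFIRINOX libraries, against 72.6, 92.8 and 94.9 in E5 vehicle. ARRB1, an arrestin that uncouples G protein receptors, came back less fully, from 419, 413 and 397 CPM to 174, 172 and 141. Its control vehicle libraries held 133, 137 and 136, all below the drugged E5 libraries, at log2 0.26 ± 0.071 and adjusted p = 0.0045 by edgeR. AFAP1L1, an actin-associated protein, returned from below, from 1.47, 2.51 and 1.36 CPM in E5 vehicle to 6.62, 6.84 and 5.99, beside 5.45, 5.92 and 7.27 in control vehicle.

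Interferon-stimulated genes fell under the drug in E5 cells and ended at very different distances from the control level. Of 43 tested genes of the list, 41 were higher in E5 vehicle than in control vehicle cells (22.1% of all genes were) and 39 fell when E5 cells received the drug (27.3% of all genes). In drugged E5 cells 29 were still higher than in untreated control cells, and 3 were lower (30.2% and 31.5% of all genes). Another 11 did not pass the test, and 11 in all were at the control level (39.4% of all genes). The list's median log2 fold change was 1.86 in E5 vehicle and 0.87 in E5 FOLFIRINOX, beside -0.01 over all genes in each. In control cells the drug gave a median of -0.56, with 19 genes lower and 3 higher (32.7% and 32.6% of all genes).

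The returned members were OAS3, PARP9, PARP14, DDX60 and ISG15, of which the last 3 are named because the count was small. OAS3 (ENSG00000111331.14, chromosome 12, 112938051 to 112976460), which makes the 2-5A messenger that activates RNase L, had 100, 97.7 and 102 CPM in control vehicle and 331, 283 and 310 in E5 vehicle libraries. Under the drug it stood at 103, 96.9 and 85.3 in E5 cells and at 61.1, 65.4 and 63.1 in control cells. Its drugged E5 range thus overlapped that of untreated control cells, with log2 -0.07 ± 0.075 and adjusted p = 0.41 by edgeR. PARP9, a partner of DTX3L in antiviral signalling, was at 34.0, 34.8 and 35.8 CPM in control vehicle and 43.7, 45.7 and 42.7 in E5 FOLFIRINOX libraries, a small rise of log2 0.33 ± 0.079, adjusted p = 0.0015 by edgeR.

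Other members stayed above the control level. OAS2 (ENSG00000111335.14, chromosome 12, 112978395 to 113011723), a sister enzyme of OAS3, had 0.667, 0.716 and 0.744 CPM in control vehicle, 57.5, 47.2 and 54.9 in E5 vehicle and 8.32, 7.91 and 8.11 in E5 FOLFIRINOX libraries. Its drugged E5 libraries lay between the other E5 and the control libraries, still log2 3.49 ± 0.21 above control, adjusted p = 1.8e-11 by edgeR. SAMD9L, an antiviral protein, kept more: 11.5, 14 and 14.6 CPM in E5 vehicle, 5.84, 7.91 and 11.2 in E5 FOLFIRINOX and 0.334, 0.334 and 0.114 in control vehicle. IFI44L rose from 4 reads over the control vehicle libraries to 61 reads over the E5 FOLFIRINOX libraries, log2 3.76 ± 0.92.

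The kept members included IRF7, IFITM3, UBE2L6 and HERC6, named here because the count was small. IFI27 overshot: it was at 0.667, 0.764 and 1.20 CPM in control vehicle, 2.54, 2.26 and 2.30 in E5 vehicle and 0.258, 0.499 and 0.257 in E5 FOLFIRINOX libraries. It too was singled out after its values were seen, and on log2(FPKM + 1) values no member of the list was lower.

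**Figure D3:**
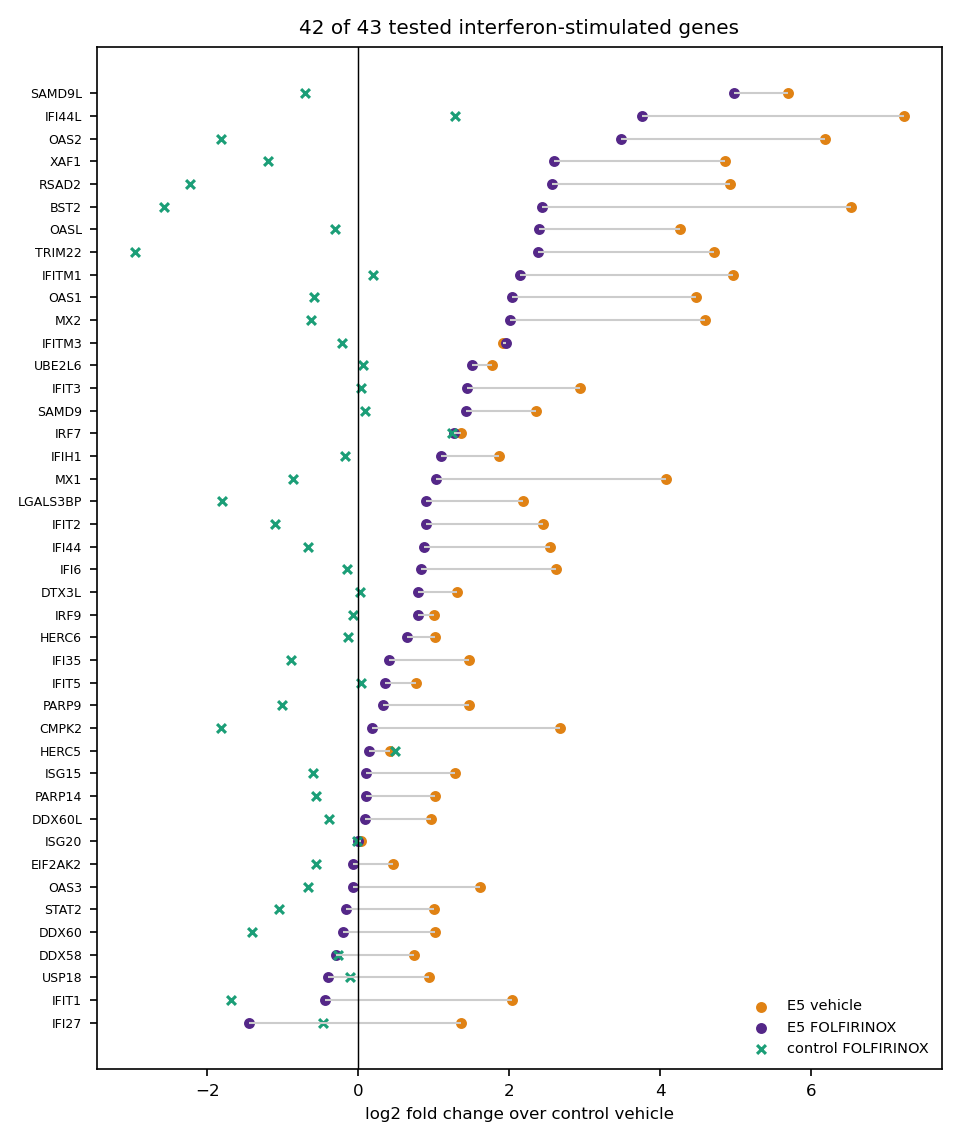
Each row is 1 of 42 interferon-stimulated genes, of 43 tested, and the x axis is the log2 fold change over control vehicle. Orange points are E5 vehicle, purple points E5 FOLFIRINOX and green crosses control FOLFIRINOX (fits to n = 3 libraries each). The purple points lie left of the orange ones in nearly every row and reach the zero line only in the lower rows.

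Promoters of 4 members are shown because 2 returned (OAS3, PARP9) and 2 stayed above control (IFI44L, RSAD2) although the same element occurs in them. They run from 250 bases before to 50 bases after the start in RefSeq, build GRCh38.p14, on the gene's strand. Capitals mark matches to the core of the interferon-stimulated response element, searched on both strands as GAAANNGAA. OAS3 lies at chr12:112938224-112938523 (+), PARP9 at chr3:122564251-122564550 (-), IFI44L at chr1:78620198-78620497 (+) and RSAD2 at chr2:6865635-6865934 (+).
OAS3: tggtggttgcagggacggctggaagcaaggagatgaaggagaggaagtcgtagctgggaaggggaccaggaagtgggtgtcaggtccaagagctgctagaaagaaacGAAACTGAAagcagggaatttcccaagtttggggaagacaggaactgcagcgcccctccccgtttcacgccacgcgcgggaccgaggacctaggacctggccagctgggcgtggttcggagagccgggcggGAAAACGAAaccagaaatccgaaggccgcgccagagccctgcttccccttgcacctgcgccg
PARP9: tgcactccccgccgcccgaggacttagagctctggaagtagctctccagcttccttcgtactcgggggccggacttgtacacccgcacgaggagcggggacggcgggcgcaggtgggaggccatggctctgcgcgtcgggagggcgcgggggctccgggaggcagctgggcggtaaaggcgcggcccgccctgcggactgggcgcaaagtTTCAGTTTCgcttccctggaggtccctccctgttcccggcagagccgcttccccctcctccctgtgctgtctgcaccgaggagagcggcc
IFI44L: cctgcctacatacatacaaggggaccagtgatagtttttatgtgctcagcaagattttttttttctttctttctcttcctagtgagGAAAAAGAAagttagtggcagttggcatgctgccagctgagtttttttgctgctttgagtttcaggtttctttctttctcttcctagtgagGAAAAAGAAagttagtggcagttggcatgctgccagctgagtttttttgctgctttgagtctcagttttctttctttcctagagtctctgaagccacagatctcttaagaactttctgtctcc
RSAD2: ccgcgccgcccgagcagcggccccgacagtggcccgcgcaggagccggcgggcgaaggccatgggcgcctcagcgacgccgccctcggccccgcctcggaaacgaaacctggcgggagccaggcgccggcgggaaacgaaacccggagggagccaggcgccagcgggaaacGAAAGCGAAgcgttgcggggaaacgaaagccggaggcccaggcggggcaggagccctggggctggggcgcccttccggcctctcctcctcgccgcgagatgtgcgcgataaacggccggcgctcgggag
The letters occurred in 2847 of 35116 tabulated promoters (8.11%) and in 27 of the 36 listed genes that had a tabulated promoter. A longer form with a further A at its end was searched first and replaced after its result was seen. It occurred in 3.57% of tabulated promoters and in 26 of the 36 genes. Among genes with a promoter, 10 of 11 at the control level and 9 of 13 away and higher held a match. PARP9 and RSAD2 each had 2 tabulated promoters, of which 1 with a match is shown; both RSAD2 promoters held one. RSAD2, viperin, was chosen for display after its values were seen, with 0.334, 0.239 and 0.458 CPM in control vehicle, 9.11, 10.9 and 11.2 in E5 vehicle and 2.38, 2.21 and 1.48 in E5 FOLFIRINOX libraries.

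Most antigen presentation genes stayed above control. Of 19 tested MHC class I presentation genes 15 were higher and 1 lower (30.2% and 31.5% of all genes). At least 2-fold higher were 9 (11.3% of all genes), and the median was 1.0. HLA-B (ENSG00000234745.13, chromosome 6, 31353872 to 31357188), a class I heavy chain, had 32.0, 28.4 and 36.6 CPM in control vehicle and 187, 189 and 184 in E5 FOLFIRINOX libraries, with 321, 311 and 298 in E5 vehicle. The drugged level was log2 2.53 ± 0.078 above control, adjusted p = 7.5e-14 by edgeR. PSMB8, a subunit of the immunoproteasome, went from 25.1, 26.4 and 30.7 CPM to 101, 90.2 and 92.7, and the peptide transporter TAP2 from 32.0, 32.2 and 33.5 to 95.8, 97.3 and 92.4. CALR, a chaperone of class I loading, was at the control level at log2 -0.35 ± 0.051, though it passed the test as lower (adjusted p = 1.4e-05 by edgeR). Kept genes included 7 of this list.

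Class II genes also stayed high in drugged E5 cells. HLA-DRA (ENSG00000204287.14, chromosome 6, 32439878 to 32445046), the class II alpha chain, had 1.45, 0.764 and 1.54 CPM in control vehicle and 0.90, 1.69 and 1.23 in drugged control cells. It was at 124, 125 and 127 CPM in E5 vehicle and 105, 95.9 and 94.6 in drugged E5 cells. Both E5 groups lay far above both control groups, with an 82.5-fold difference (95% interval 61.3 to 111) between drugged E5 and untreated control cells. HLA-DPA1, another class II alpha chain, had log2 5.10 ± 0.20. HLA-DRB5 had log2 6.12 ± 0.28, but reads of HLA-DRB5 and its near-identical DRB copies may have been split, so its value is uncertain.

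The other kept genes came from several functions. GDA (ENSG00000119125.17, chromosome 9, 72114595 to 72257193), guanine deaminase, had 0.222, 0.239 and 0.286 CPM in control vehicle and 83.2, 82.9 and 84.3 in E5 FOLFIRINOX libraries, with 79.6, 86.9 and 80.9 in E5 vehicle. Its 3 drugged E5 libraries lay within the range of the E5 vehicle libraries, and the log2 fold change over control was 8.32 ± 0.31, adjusted p = 1.5e-16 by edgeR. ARHGAP20, a GTPase-activating protein, had 2 reads over the control vehicle libraries and 2049 over the E5 FOLFIRINOX libraries, a ratio of 993 (exact 95% interval 275 to 8204, counting error only). The integrin subunit ITGA4 was at log2 4.83 ± 0.19, the sterol transfer protein GRAMD1B at 4.30 ± 0.13 and the interleukin-7 receptor IL7R at 4.09 ± 0.11.

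The protein-coding genes farthest from control on the high side had few or no reads in control vehicle cells. NRXN3 (ENSG00000021645.20, chromosome 14, 78170373 to 79868291), a synaptic adhesion protein, had no read in control vehicle libraries and 22.3, 23.4 and 21.2 CPM in E5 FOLFIRINOX libraries. That is at least 352-fold higher, taking 3 counts over the group as the floor of 0.0633 CPM. MSC, a basic helix-loop-helix factor, also had no control read and was at least 94.3-fold higher. VCAM1, a vascular adhesion receptor, LAMA4, a laminin chain, AQP4, a water channel, TSLP, an epithelial cytokine, and HLA-DPB1 each had 1 read over the control vehicle libraries. Their ratios were 361 (64.3 to 14278), 398 (71.1 to 15771), 300.4 (53.5 to 11905), 268 (47.8 to 10641) and 298 (53 to 11790), with exact 95% counting intervals in brackets. RARB, a retinoic acid receptor, had 2 control reads and a ratio of 199 (54.8 to 1650).

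On the low side PTPRC was the extreme. This phosphatase is best known from blood cells, and its reads numbered 2439 over the control vehicle libraries, 500 over the control FOLFIRINOX libraries and 2 over each E5 group. The drugged E5 level was lower by a ratio of 1258 (exact 95% interval 348 to 10396, counting error only). SCEL, a protein of the cornified envelope, fell from 22.1, 21 and 18.3 CPM to 2 reads in all, and SULT1B1, a sulfotransferase, from 7.56, 9.55 and 8.24 CPM to 2 reads in all. MMP10, a stromelysin, went from 111, 101 and 104 CPM to 2.33, 1.64 and 1.80, log2 -5.74 ± 0.13. RAB34, CALB1, GRHL3, SEMA3F and PRDX2 had log2 fold changes of -7.72 ± 0.77, -6.68 ± 1.2, -5.87 ± 0.62, -5.87 ± 0.34 and -5.41 ± 0.46. Fits with so few reads depend on edgeR's prior count.

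Where line and drug moved a gene the same way, drugged E5 cells ended farther from control than E5 vehicle cells, which the choice of these genes fixes. CEMIP (ENSG00000103888.17, chromosome 15, 80779343 to 80951776), which depolymerises hyaluronan, had 1.0, 0.477 and 0.515 CPM in control vehicle, 3.73, 4.32 and 4.96 in control FOLFIRINOX, 15.9, 16.7 and 16.2 in E5 vehicle and 73.1, 73.7 and 60.0 in E5 FOLFIRINOX libraries. The 4 groups did not overlap, and the end was log2 6.84 ± 0.27 above control, adjusted p = 3e-15 by edgeR. PPARG, a nuclear receptor of lipid metabolism, went through 0.556, 1.34 and 1.43 CPM in control vehicle and 12.3, 10.3 and 10.6 in E5 vehicle to 31.3, 28.6 and 30.8. The adaptor FYB1, the Notch-related DNER, the scavenger receptor CD163L1 and the adhesion protein NRCAM ended at log2 6.97 ± 0.61, 5.10 ± 0.16, 5.02 ± 0.24 and 4.28 ± 0.18.

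ALDH1A1 (ENSG00000165092.13, chromosome 9, 72900671 to 73080442), a retinaldehyde dehydrogenase, was added on the low side. It had 60.9, 63.2 and 62.5 CPM in control vehicle, 42.6, 37.2 and 41.9 in control FOLFIRINOX, 3.21, 3.65 and 3.92 in E5 vehicle and 1.29, 1.42 and 1.61 in E5 FOLFIRINOX libraries, log2 -5.43 ± 0.14. UNC13A, a vesicle priming protein, ended at log2 -5.05 ± 0.17.

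Most cholesterol synthesis genes were lower in drugged cells of both lines than in untreated control cells. Of 24 tested genes, none was higher and 19 were lower in drugged E5 cells (30.2% and 31.5% of all genes). Of the 19, 10 were at least 2-fold lower (7.5% of all genes). The median there was -0.90, and 7 genes were at the control level (39.4% of all genes). In E5 vehicle cells the median was 0.13 and 20 of the 24 were at the control level (49.0% of all genes were). There 8 passed the test as higher and 4 as lower (22.1% and 22.2% of all genes). STARD4, a member, took the other course described above, away in E5 vehicle and at the control level under the drug. Drugged control cells had 23 of the 24 lower (32.7% of all genes), with a median of -0.98. SREBF2 (ENSG00000198911.12, chromosome 22, 41833079 to 41907307) had 201, 198 and 209 CPM in control vehicle, 184, 166 and 167 in E5 vehicle, 36.5, 47.1 and 40.8 in control FOLFIRINOX and 54.4, 55.1 and 49.0 in E5 FOLFIRINOX libraries. Its 2 vehicle groups stood together above the 2 drugged groups, and the fall was log2 -1.94 ± 0.080, adjusted p = 2.6e-12 by edgeR.

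HMGCS1, which makes HMG-CoA, fell from 188, 203 and 193 CPM to 53.1, 51.1 and 58.8, and INSIG1, the sterol-sensing retention factor, from 95, 96.5 and 99.0 to 29.0, 25.5 and 29.3. LSS, lanosterol synthase, fell by 1.65 ± 0.080 and SQLE, squalene epoxidase, by 0.97 ± 0.057 on the log2 scale. The desaturase SCD, in the list of liver X receptor and sterol efflux genes, fell from 1349, 1315 and 1305 CPM to 346, 311 and 301, log2 -2.05 ± 0.059. In that list 4 of 12 tested genes were higher and 4 lower (30.2% and 31.5% of all genes). The efflux pump ABCA1 went up from 13.5, 14.5 and 12.1 to 64.2, 58.8 and 60.6 CPM.

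The promoter of SREBF2 is shown because it alone, of 18 listed genes with a tabulated promoter, held the searched element. It lies at chr22:41832855-41833154 (+), and capitals mark TCACNCCAC, searched on both strands, which occurred in 1.13% of tabulated promoters.
SREBF2: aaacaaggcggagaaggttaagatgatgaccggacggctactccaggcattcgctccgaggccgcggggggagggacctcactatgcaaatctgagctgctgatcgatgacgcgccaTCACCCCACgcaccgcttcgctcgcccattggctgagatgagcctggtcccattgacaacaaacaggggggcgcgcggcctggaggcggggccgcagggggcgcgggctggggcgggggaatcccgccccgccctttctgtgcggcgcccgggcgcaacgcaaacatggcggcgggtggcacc

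Other genes moved by the drug alone included amino acid enzymes. PSAT1 (ENSG00000135069.14, chromosome 9, 78297125 to 78330093), of serine synthesis, had 319, 303 and 317 CPM in control vehicle, 268, 255 and 248 in E5 vehicle and 71.2, 68.4 and 68.0 in E5 FOLFIRINOX libraries, log2 -2.18 ± 0.056, adjusted p = 8.6e-15 by edgeR. PCK2, mitochondrial phosphoenolpyruvate carboxykinase, and IDH2, mitochondrial isocitrate dehydrogenase, fell by 2.18 ± 0.13 and 1.93 ± 0.11. PTCH1, the Hedgehog receptor, fell by 1.92 ± 0.080 and MYORG, a glycosidase, by 2.0 ± 0.12. ZSCAN12, a zinc finger protein, rose from 6.45, 6.06 and 5.78 CPM to 27.3, 27.3 and 28.3.

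ATF4 target genes split, with 8 of 21 tested genes higher and 11 lower (30.2% and 31.5% of all genes). STC2, a secreted glycoprotein, and CEBPB, a transcription factor, rose by log2 3.26 ± 0.10 and 2.20 ± 0.12, whereas PSAT1 and the glutathione-degrading CHAC1 fell by 2.18 ± 0.056 and 2.12 ± 0.18. Endoplasmic reticulum chaperones were lower in 16 of 20 tested genes and higher in 1 (31.5% and 30.2% of all genes). Yet 10 of the 20 were at the control level (39.4% of all genes). HSPA5 (ENSG00000044574.9, chromosome 9, 125234853 to 125241382), the chaperone BiP, had 748, 756 and 749 CPM in control vehicle, 756, 744 and 756 in E5 vehicle and 376, 367 and 365 in E5 FOLFIRINOX libraries. The 13 mitochondrially encoded genes gave 10 lower and 1 higher (31.5% and 30.2% of all genes), none at least 2-fold. At the control level were 5 of them (39.4% of all genes), and the largest change was that of MT-CO2, at log2 -0.71 ± 0.062.

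Held genes were those that drugged control cells changed and drugged E5 cells had at the untreated level. This rule does not ask whether the drug moved the gene in E5 cells, so held does not mean unmoved there. DUSP5 (ENSG00000138166.6, chromosome 10, 110497907 to 110511533), a phosphatase that switches off ERK, had 28.8, 32.0 and 30.9 CPM in control vehicle, 159, 201 and 185 in control FOLFIRINOX, 16.9, 14.9 and 13.6 in E5 vehicle and 30.9, 31.3 and 31.0 in E5 FOLFIRINOX libraries. It thus rose with the drug in both lines, from a lower start in E5 cells, and ended at log2 0.02 ± 0.090 from control, adjusted p = 0.89 by edgeR. HBEGF, a ligand of the EGF receptor, ended at 12, 12.8 and 12.7 CPM beside 10.1, 10.9 and 11.2 in control vehicle and 48.2, 50.2 and 48.4 in control FOLFIRINOX. Those libraries did not overlap, yet the difference did not pass the test (log2 0.21 ± 0.094, adjusted p = 0.064 by edgeR), and it did pass with other scalings (log2 0.23 with RLE size factors).

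CELSR2, a cadherin of planar polarity, LAMA5, a laminin chain, and LRP8, a lipoprotein receptor, were held from the other side. CELSR2 had 15.2, 15.4 and 16.9 CPM in control vehicle, 2.44, 3.82 and 2.68 in control FOLFIRINOX and 16.1, 18.1 and 15.1 in E5 FOLFIRINOX libraries. LAMA5 ended at log2 -0.21 ± 0.10 (adjusted p = 0.09 by edgeR; it passed the test without E5 FOLFIRINOX replicate 2, at -0.28). LRP8 ended at log2 -0.23 ± 0.075 (adjusted p = 0.014 by edgeR; it did not pass without control vehicle replicate 2, at -0.20, with total counts as the scaling, at -0.17, or without the filter, at -0.22).

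APOE and HDAC9 were the overshooting genes at high level. APOE (ENSG00000130203.10, chromosome 19, 44905791 to 44909393), a lipoprotein component, had 15.5, 14.3 and 16.7 CPM in control vehicle, 8.30, 7.35 and 7.49 in E5 vehicle and 47.3, 48.9 and 47.8 in E5 FOLFIRINOX libraries, beside 148, 183 and 137 in control FOLFIRINOX. HDAC9, a histone deacetylase, went from 9.78, 12.3 and 12.9 in E5 vehicle to 99.6, 106 and 104 CPM, around a control vehicle level of 43.6, 46.1 and 39.5. Neither gene's E5 groups overlapped control vehicle, and the ends were log2 1.64 ± 0.10 and 1.26 ± 0.080 above it.

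Genes tied to the drugs themselves went different ways. ABCG2 (ENSG00000118777.12, chromosome 4, 88090150 to 88231628), an efflux pump that carries SN-38, had 34.4, 38 and 37.8 CPM in control vehicle, 56.8, 52.4 and 55.4 in control FOLFIRINOX, 366, 421 and 409 in E5 vehicle and 468, 455 and 460 in E5 FOLFIRINOX libraries. Its drugged E5 level was 12.5-fold the control level (95% interval 11.4 to 13.8), adjusted p = 2.6e-16 by edgeR. ABCC2, another efflux pump, went from 4.45, 4.25 and 4.12 CPM to 12.2, 12.3 and 12.8. ABCB1, P-glycoprotein, went from 0.667, 0.716 and 0.572 to 1.96, 1.99 and 1.80, log2 1.54 ± 0.25, but the call was lost on the authors' FPKM values, at 0.14 on log2(FPKM + 1).

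DPYD (ENSG00000188641.14, chromosome 1, 97077743 to 97995000), which degrades fluoropyrimidines, had 170, 164 and 156 CPM in control vehicle and 81.7, 86.3 and 77.9 in E5 FOLFIRINOX libraries, with 77.4, 88.1 and 81.5 in E5 vehicle, log2 -0.99 ± 0.071. TOP1, the target of SN-38, was lower at log2 -0.43 ± 0.072 (adjusted p = 5.7e-05 by edgeR), though still inside the control band. TYMS, thymidylate synthase, was lower at -0.24 ± 0.059 (adjusted p = 0.0022 by edgeR), also inside the band. The nucleoside transporter SLC29A1, at 55.5, 52.7 and 52.6 CPM in control vehicle, was at 32.9, 30.5 and 26.9 in E5 vehicle and 48.3, 45.0 and 50.7 in E5 FOLFIRINOX libraries, log2 -0.16 ± 0.082, adjusted p = 0.11 by edgeR. The copper transporter ATP7B had log2 -0.13 ± 0.16. MT1E, a metallothionein, was at log2 -5.01 ± 0.55. Over the list of drug transport and metabolism genes, 4 of 28 were higher, 12 lower and 19 at the control level. The shares of all genes were 30.2%, 31.5% and 39.4%.

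**Figure D4:**
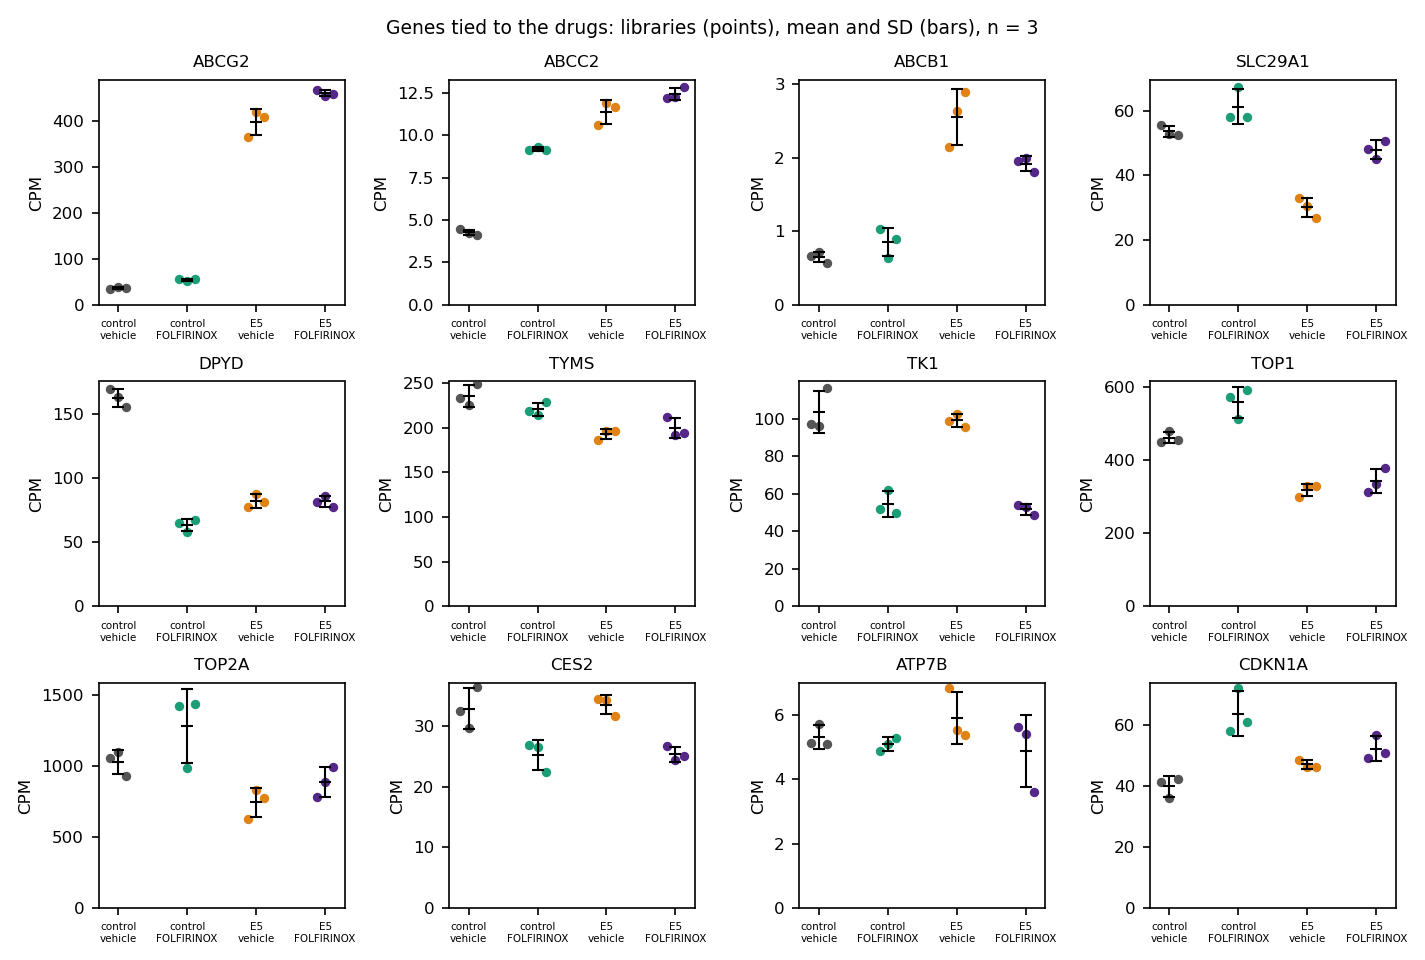
CPM of 12 genes tied to the drugs, by group, with a point per library and bars for the mean and SD (n = 3). ABCG2 stands at 455 to 468 CPM in E5 FOLFIRINOX against 34.4 to 38 in control vehicle, DPYD is lower in all 3 other groups, and TYMS, TOP2A and ATP7B stay within 1.5-fold of control vehicle in E5 FOLFIRINOX cells.

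Most DNA replication and mitosis genes were lower than in control cells, few of them by 2-fold. Among all tested genes 31.5% were lower, 30.2% higher and 39.4% at the control level. At least 2-fold lower were 7.5% of all genes. DNA replication genes were lower in 28 of 38, 2 of them at least 2-fold, and higher in 1, with 22 of 38 at the control level and a median of -0.33. Mitosis genes were lower in 21 of 29, 3 of them at least 2-fold, and higher in 1, with 18 at the control level and a median of -0.35. MKI67 (ENSG00000148773.14, chromosome 10, 128096659 to 128126423), the proliferation marker Ki-67, fell from 1676, 1811 and 1589 CPM to 690, 811 and 601, log2 -1.27 ± 0.085. TK1, thymidine kinase, fell by 1.0 ± 0.090 and the DNA ligase LIG1 by 1.36 ± 0.090 on the log2 scale. RRM2, the ribonucleotide reductase subunit, was at the control level at -0.11 ± 0.050 (adjusted p = 0.063 by edgeR).

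Of 30 tested p53 target genes 16 were lower and 7 higher, 4 and 2 of them at least 2-fold (7.5% and 11.3% of all genes). At the control level were 11. For this list and the repair and BCL2 lists below, the shares of all genes were 31.5% lower, 30.2% higher and 39.4% at the control level. CDKN1A, the inhibitor p21, had 41.4, 35.9 and 42.1 CPM in control vehicle and 49.0, 56.8 and 50.8 in E5 FOLFIRINOX libraries, log2 0.39 ± 0.090. MDM2 and GDF15 were lower, at -0.60 ± 0.091 and -0.95 ± 0.15, and PLK2 and GADD45A higher, at 2.01 ± 0.056 and 1.68 ± 0.075. Repair genes gave 10 higher, 15 lower and 23 of 39 at the control level. Among them FANCF rose from 14.1, 13.6 and 13.4 CPM to 37.4, 32.7 and 35.3, and MGMT, which removes alkyl groups from guanine, fell from 7.12, 5.63 and 6.92 to 0.724, 0.641 and 0.772. BCL2 family genes gave 4 higher, 6 lower and 8 of 16 at the control level, the last including MCL1 at -0.07 ± 0.061.

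Most of the tested stress defence genes and secreted factors stood above control. NRF2 target genes were higher in 15 of 20 and lower in 3 (30.2% and 31.5% of all genes), median 0.91. FTH1, ferritin heavy chain, went from 470, 463 and 520 CPM to 2379, 2271 and 2259, and the aldo-keto reductase AKR1B10 from 0.667, 0.286 and 0.458 to 6.93, 6.05 and 7.15. TXNRD1, thioredoxin reductase, had the highest level in the list and was at the control level, at 0.11 ± 0.043 (adjusted p = 0.038 by edgeR). Secreted inflammatory genes were higher in 12 of 18 and lower in 3, median 1.40. At least 2-fold higher were 10, and all 3 lower genes were at least 2-fold lower (11.3% and 7.5% of all genes). The cytokine IL1B went from 0.222, 0.286 and 0.286 CPM to 15.7, 15.3 and 14.2. The chemokine CCL2 went from 74.1, 71.8 and 76.6 to 347, 342 and 382. FTH1 and CCL2 were among the kept genes.

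Histone genes were higher in 11 of 16 and lower in 2 (30.2% and 31.5% of all genes), median 1.21. H2AC6 was at 31.8, 35.2 and 36.3 CPM in control vehicle and 185, 177 and 187 in E5 FOLFIRINOX libraries. The kit captures mRNA, so these values cover the histone transcripts it took up, and near-identical histone copies may share reads. Hypoxia and glycolysis genes were higher in 19 of 27 and lower in 4. VEGFA (ENSG00000112715.25, chromosome 6, 43770184 to 43786487), the angiogenic growth factor, had 52.5, 56.3 and 58.6 CPM in control vehicle, 294, 284 and 288 in E5 vehicle and 611, 638 and 638 in E5 FOLFIRINOX libraries, log2 3.49 ± 0.058, adjusted p = 1.9e-16 by edgeR. Lysosome genes were higher in 15 of 27 and lower in 6, and the autophagy receptor SQSTM1 rose from 780, 755 and 838 CPM to 2939, 2927 and 2750.

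Lists of cell state are given beside the 30.2% of all tested genes that were higher and the 31.5% that were lower. Mesenchymal and matrix genes gave 10 higher and 8 lower of 21, with the matrix protein THBS1 up at log2 2.28 ± 0.064 and the lysyl oxidase LOX down at -2.83 ± 0.25. Epithelial genes gave 6 higher and 5 lower of 14, with 4 and 3 of them at least 2-fold (11.3% and 7.5% of all genes). KRT8 went from 30.2, 30.0 and 35.1 CPM to 190, 188 and 170, and its partner KRT18 was higher by log2 1.86 ± 0.070. Both were already high in E5 vehicle cells, at means of 240 and 530 CPM, and both were kept genes. The 3 at least 2-fold lower were the protease inhibitor SPINT1 at -2.20 ± 0.38, the tight junction protein TJP3 at -3.34 ± 0.48 and the E-cadherin gene CDH1 at -1.21 ± 0.32, the last pair named because the count was small. SPINT1 and CDH1 lost the call on log2(FPKM + 0.1) values. MAPK and AP-1 output genes gave 14 higher and 6 lower of 26, with the phosphatase DUSP4 at 1.87 ± 0.072. YAP target genes gave 10 higher and 7 lower of 22. Ribosome biogenesis genes gave 14 higher and 4 lower of 28. At the control level were 20 (39.4% of all genes), and the dyskerin gene DKC1 was at 0.70 ± 0.053.

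**Figure D5:**
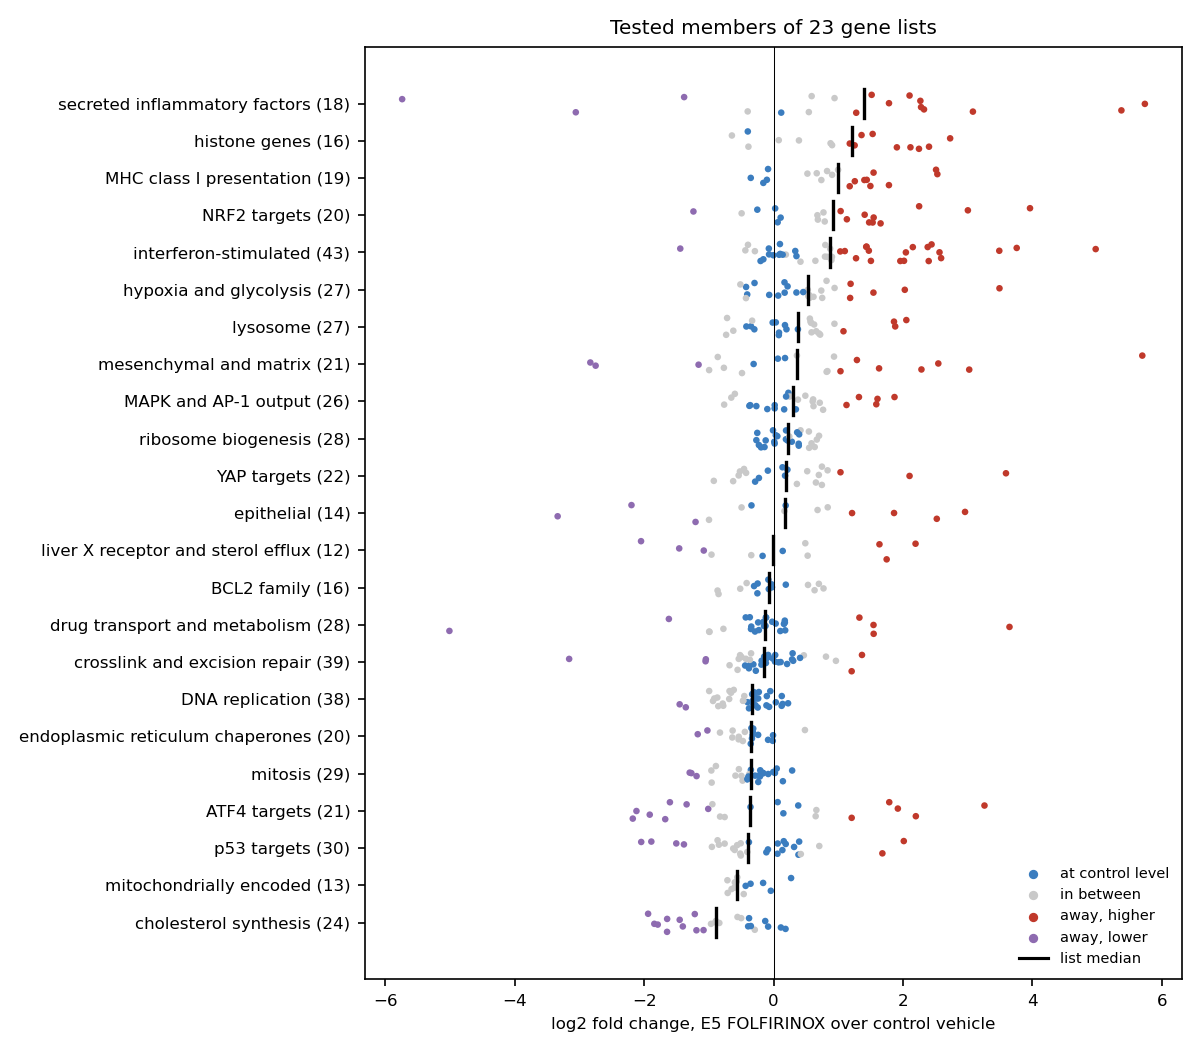
Each point is 1 tested gene of a list (number tested in brackets), on the log2 fold change of E5 FOLFIRINOX over control vehicle, with black bars at the list medians. Colours mark the control level, in between and away. Secreted inflammatory factors have a median of 1.40 and cholesterol synthesis -0.90. DNA replication and mitosis lie mostly left of 0, with medians of -0.33 and -0.35, and ribosome biogenesis mostly right of it, at 0.21.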

How the data were processed

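RNA was sequenced from 4 samples of KP4 cells, with 12 library columns, 3 per sample. Per the submitters' processing notes reads were trimmed with Trimmomatic and aligned with STAR 2.5.1b to GRCh38. The deposited counts are stranded reads per gene, unscaled. The deposited FPKM values and the deposited rlog values, on a log2 scale, come from programs not given in the sources used here and served as alternatives. Gene reads per library ranged from 7359034 to 21775030, and the 4 classes of reads outside genes were left out of library sizes.

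Counts of all 12 libraries were fitted with edgeR 4.0.16 in R 4.3.3, with group means, TMM and filterByExpr, which left 15636 genes. The quasi-likelihood F test used Benjamini-Hochberg adjustment at 0.05. The biological coefficient of variation was 7.37%. Unless given, the adjusted p of a gene said to have risen or fallen was under 0.05. Such words compare E5 FOLFIRINOX with control vehicle cells unless other groups are named. Fold change intervals are at 95%. A group without reads was set to a floor of 3 counts over the group, and floors and count ratios cover counting error only. The fit was also run on simulated counts given the same spread in every gene. That cannot show how its intervals hold where the spread differs between genes.

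Named genes were the 10 highest and 10 lowest protein-coding folds of at least 5 CPM in any library compared, 8 per path at a mean of at least 20 CPM, in each list the 4 largest changes among genes averaging 1 CPM or more, the gene of highest level per list, and 15 genes tied to the drugs or to p53. Others are marked as chosen after their values were seen, and some named by the rule are not reported here. The members and the 23 lists were chosen with earlier results of these data known. Alternatives were other scalings, no filter, DESeq2 1.42.0, limma 3.58.1 on FPKM and rlog values, a replicate block, a fit to 6 libraries, other intervals and leaving out 1 library.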

Additional observations from a re-analysis of the deposited data

Results flagged for a closer look

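For 11 of the 13 named genes that returned or were held, the drug response in E5 cells differed from that in control cells by edgeR's interaction test (adjusted p under 0.05, where 25.7% of all tested genes passed). Of all 260 genes on these paths, 184 passed. Differences are log2 responses in E5 minus in control cells. They were positive for STARD4 (1.49), LAMA5 (1.45), CELSR2 (1.32), LRP8 (1.07), ITGB8 (0.91) and ARRB1 (0.42). They were negative for DUSP5 (-1.52), ARHGEF37 (-1.16), HBEGF (-1.09), OAS3 (-1.03) and GPRC5A (-0.57). Returned and held genes were chosen by group differences that enter this test, so these values describe them and support nothing.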

How the results depend on the processing

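The count of genes called, 9640, ranged from 8038 on log2(FPKM + 1) to 10023 without a filter, with 8999 by DESeq2. Calls at least 2-fold higher and lower were 797 and 363 on log2(FPKM + 1) and 583 and 262 on rlog values, scales that shrink folds of low genes. Genes at the control level numbered 2295 with the interval within 0.32 on the log2 scale and 10283 within 2-fold. With that narrower interval in the paths, an alternative chosen after seeing the data, 16 genes returned, 94 were kept, 70 were moved by the drug only and 38 were held. Leaving out 1 library gave 8804 to 9138 calls, 4286 to 4573 higher, 4518 to 4639 lower, 1736 to 1765 and 1146 to 1181 at 2-fold, and 5692 to 5941 at the control level. Replicate numbers did not pair the libraries: same-numbered control vehicle and E5 FOLFIRINOX libraries correlated at -0.14, -0.17 and -0.41, and a replicate block called 9396 genes. Over 171 named genes and 16 alternatives, 2692 of 2736 values stayed on their side of the threshold, 29 lost the call and 15 gained it. No called value changed direction, and 12 values of 7 genes that were not called changed sign, the largest reaching 0.079 on the log2 scale. On each FPKM scale 4 of the named genes lost the call, and CES2 and ABCB1 lost it on both. The median of the epithelial list, 0.18, was -0.05 on log2(FPKM + 0.1). Low depth limits genes with few reads, whose intervals are seldom inside 1.5-fold.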
